A study of Rattus norvegicus with 20 samples.

Results

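The genes described here encode the subunits of the proteasome, its activators, its inhibitor and its assembly chaperones. They were chosen by name: every probe of the array whose gene name starts with Psma to Psmg followed by a number, without Psmb8, Psmb9 and Psmb10, the immunoproteasome subunits, which serve as a comparison. This gave 45 genes with 50 probes of 30367 on the array, and 44 of these genes were among the 15260 genes tested. The 44 are 15 genes of the core (Psma and Psmb), 20 of the regulatory particle (Psmc and Psmd), 4 activators (Psme), 4 genes for the inhibitor and for chaperones of the core (Psmf1, Psmg1, Psmg2 and Psmg4), and Psmc3ip, which carries the name but is a partner of a subunit and no subunit. The missing gene, Psmb11, a catalytic subunit known from the thymus, was well above background on 3 arrays at most and was not tested.

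The proteasome is the protease complex that degrades proteins marked with ubiquitin. Its core is a barrel of alpha rings, which gate the entrance, and beta rings, which hold the proteolytic sites, and the regulatory particle on its ends has an ATPase ring that unfolds substrates and non-ATPase subunits that bind and remove ubiquitin. In blood it works in all nucleated cells, and in reticulocytes, the last red cell precursors, in whose lysates ubiquitin-dependent degradation was first worked out, it removes proteins while the cell matures.

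RNA was taken from whole blood of Wistar rats, 1 rat per array, with 4 rats in each of 5 groups. The groups were a sham operation, and surgically induced reflux esophagitis that was left untreated, treated with STW5 (a liquid preparation of medicinal plant extracts) at 0.5 ml/kg or at 2 ml/kg, or treated with omeprazole (a proton pump inhibitor that lowers gastric acid) at 30 mg/kg. Drugs were given for 7 days before surgery and 10 days after it. The time of 10 days after surgery holds for all 5 groups, sham and untreated rats included. The labels name the strain and give neither age nor sex, and they number the STW5 groups in an order opposite to that of the study's design text, so the direction between the doses is uncertain and both doses are mostly pooled below.

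Levels are given on a log2 scale on which 0 is the 75th percentile of the intensities of that array, so a difference of 1 is a factor of 2. The 75th percentile lay between 71.3 and 308 intensity units, the share of probes well above background was 43.09% to 57.45%, and the number of arrays limits the precision. Sham and untreated arrays lay on slide 1, STW5 arrays on slide 2 and omeprazole arrays on slide 3, so for the treatments slide and group cannot be told apart. The arrays held blood by their markers: Ptprc and Coro1a of leukocytes and Alas2 and Hbb of erythroid cells were well above background on 20 of 20 arrays. Untreated rats differed among themselves, since the first resembled sham and the second had a T cell marker score of -2.59 against -0.27 to 0.32 in the others. In whole blood, fewer cells of a type and less RNA per cell cannot be told apart.

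The array measured each gene through probes of 60 bases, and the probes shown are those on which the contrasts between members turn. Psmd8 and Psmd4 (regulatory particle) and Psmb6 (core) varied together, Psmd1 (regulatory particle) moved against them, and Psme4 (activator) is a gene whose probes disagreed. The sequences come from the scanner files, are written 5′ to 3′ in lower case, and lie on rn4 at chr1:84310801-84310860 (minus strand), chr2:189933368-189933427 (minus), chr10:57371368-57371427 (plus), chr9:84882853-84882912 (plus) and chr14:111990483-111990542 (plus), in the order given.
Psmd8 probe: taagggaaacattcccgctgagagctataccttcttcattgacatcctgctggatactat
Psmd4 probe: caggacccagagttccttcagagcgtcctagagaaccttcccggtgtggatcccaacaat
Psmb6 probe: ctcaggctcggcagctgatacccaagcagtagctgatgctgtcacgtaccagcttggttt
Psmd1 probe: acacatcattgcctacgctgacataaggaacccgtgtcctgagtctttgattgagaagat
Psme4 probe: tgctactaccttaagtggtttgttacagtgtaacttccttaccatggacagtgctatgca
Of the 44 probes used, 9 span more than 60 bases on rn4 and so cross an exon junction. The Psmd8, Psmb3 and Psme2 probes share a word of 20 bases, on the same or the opposite strand, with a probe of another name. Those names are a probe number and accessions, which may denote the same gene, and the strand was not recorded. Whether the signal holds another transcript was not settled.

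Proteasome genes are known to be induced together through a shared promoter element for the factor Nfe2l1, which has the core TGACNNNGC of the antioxidant response element. In RefSeq promoters (GRCr8), 39 members had an entry, and this core was found on either strand within the 250 bases before the start in 7 of them, 17.9% against 10.2% of 27457 promoters. These were Psma3, Psmb2, Psmb5, Psmb6, Psmd1, Psmd9 and Psme4. The 4 promoters shown, the 250 bases before the start with the core in capitals, belong to Psmb6 and Psmd9, which varied with Psmd8, to Psmd1, which moved against it, and to Psmd8, which holds no such core in this window. They lie at chr10:55737638-55737887 (plus), chr12:39018265-39018514 (minus), chr9:94157721-94157970 (plus) and chr1:93608690-93608939 (minus).
Psmb6 promoter: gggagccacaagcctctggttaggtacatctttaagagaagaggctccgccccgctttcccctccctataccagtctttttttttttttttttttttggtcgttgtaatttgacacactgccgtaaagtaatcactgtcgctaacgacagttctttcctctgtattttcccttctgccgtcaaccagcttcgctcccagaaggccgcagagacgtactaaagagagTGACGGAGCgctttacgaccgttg
Psmd9 promoter: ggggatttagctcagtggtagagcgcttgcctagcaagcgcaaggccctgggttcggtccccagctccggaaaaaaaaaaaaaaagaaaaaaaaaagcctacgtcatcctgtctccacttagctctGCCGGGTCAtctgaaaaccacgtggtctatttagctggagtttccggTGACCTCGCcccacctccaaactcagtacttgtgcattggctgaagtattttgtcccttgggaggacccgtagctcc
Psmd1 promoter: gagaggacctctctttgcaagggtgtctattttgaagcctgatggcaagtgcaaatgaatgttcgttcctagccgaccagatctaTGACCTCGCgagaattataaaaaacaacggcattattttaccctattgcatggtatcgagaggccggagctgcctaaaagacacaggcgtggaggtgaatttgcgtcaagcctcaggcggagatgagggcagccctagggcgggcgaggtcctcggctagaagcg
Psmd8 promoter: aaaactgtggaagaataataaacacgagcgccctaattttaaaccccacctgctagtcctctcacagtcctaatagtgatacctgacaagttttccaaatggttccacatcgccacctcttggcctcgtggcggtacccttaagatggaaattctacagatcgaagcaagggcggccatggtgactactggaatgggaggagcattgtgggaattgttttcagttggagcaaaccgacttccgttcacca
GATAAG, the core bound by GATA factors, which control erythroid genes, was found on either strand of the same window in 2 members (Psma3 and Psmb2), 5.13% against 6.07% of all promoters. CCAAT was found in 19 members, 48.7% against 34.3%.

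Most members were readily detected in blood: 38 of the 44 were well above background on all 20 arrays, and 35 had a mean probe level above that of the median gene. Psmf1, the inhibitor of the core, had the highest mean level (5.69 log2 units above the array's 75th percentile), followed by Psme1 (5.49), Psmd4 (5.45) and Psma6 (5.18). The lowest were Psmc3ip (-3.19), Psmg2 (-2.98), Psmc6 (-2.45) and Psma3 (-2.21), each above background on 11 to 17 arrays. Probes differ in how well they bind, so the order of these levels describes probes and not transcript amounts. Psma3l, which RefSeq lists as a synonym of Psma3, has a probe of its own next to that of Psma3 on rn4 chromosome 6, and the level there was 1.28. The names of the array were kept, so Psma3 and Psma3l both count as core members. The -2.21 of Psma3 comes from the dimmer of these probes. Within groups the members varied less than the median gene in 28 of 44 cases, with a median SD of 0.34 against 0.51 over all genes. The SDs were not compared between genes of like level, and 35 members had a level above that of the median gene. The steadiest were Psmd3 (0.18), Psmb5 and Psmc5 (0.22 each), and the most variable were Psmb6 (0.90), Psma2 (0.78), Psme4 (0.76) and Psmf1 (0.74).

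**Figure D1:**
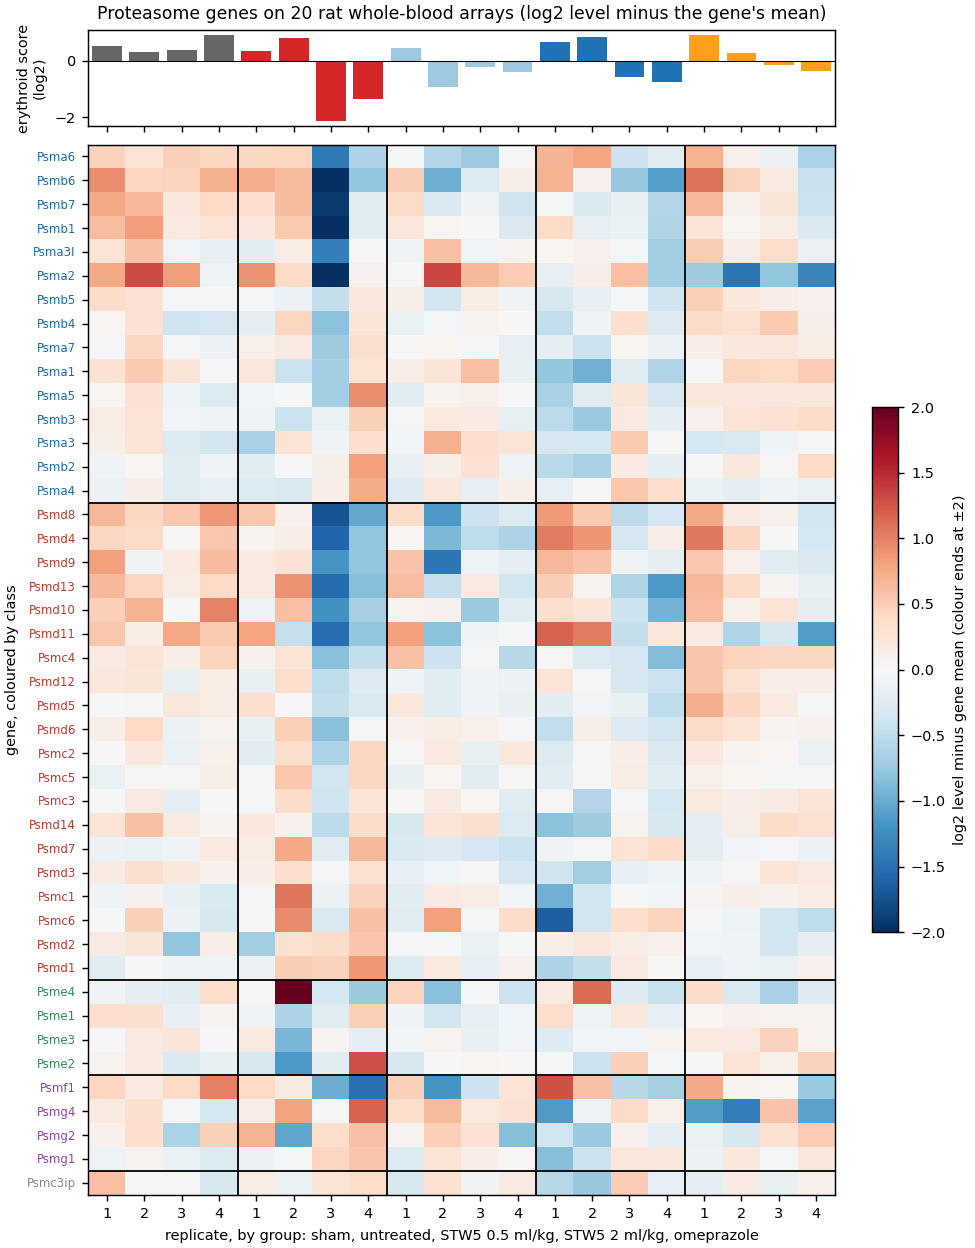
Levels of the 44 tested members (rows, by class and by their correlation with the erythroid score) on 20 arrays (columns, by group), as log2 level minus the gene's mean, with the erythroid marker score of each array as bars above. In the untreated group, the third and the fourth rats have the lowest erythroid scores (-2.15 and -1.36) and low Psmd8, Psmb6 and Psmf1, while the first looks like sham.

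The first question was whether proteasome genes differed in untreated esophagitis from sham. No member passed the test (limma, adjusted p below 0.05, 0 of 44, against 0.00655% of all genes), and the smallest adjusted p was 0.248. At an unadjusted p below 0.05 there were 6 members, 5 lower and 1 higher, or 13.6% against 18.2% of all genes. The members divided around the median of all genes, which was itself -0.19: 22 lay above it and 22 below. No member had groups that did not overlap, as 1.49% of all genes did with untreated rats higher and 1.64% with them lower. The core and the regulatory particle gave nearly the same median relative to all genes, -0.05 and -0.02, while single members spread from -1.15 to 0.52 on the log2 scale.

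Of the catalytic subunits of the core, Psmb6 (caspase-like site) read 2.91, 2.41, 2.43 and 2.69 in sham and 2.71, 2.61, -0.67 and 1.21 in untreated rats. The third and the fourth untreated rats were below all sham rats, and the others were within their range. The change was -1.15 ± 0.58 (log2, SE, limma adjusted p = 0.281). Psmb7 (trypsin-like site) showed the same rats low, with 1.72, 1.61, 1.17 and 1.35 in sham against 1.28, 1.58, -0.97 and 0.74, and a change of -0.81 ± 0.40 (adjusted p = 0.277). Psmb5 (chymotrypsin-like site) had the second and the third untreated rats below all sham rats and the fourth within their range, with 3.78, 3.71, 3.39 and 3.38 in sham against 3.40, 3.31, 2.95 and 3.63, and a change of -0.24 ± 0.20 (adjusted p = 0.46). Relative to the all-gene median this was -0.05. Spike-in scaling moved that median from -0.19 to 0.39. It shifts all genes of an array alike, so the relative value stays the same by construction. Of the alpha ring, Psma2 had the lowest change, -0.94 ± 0.51, and Psma4 the highest, 0.17 ± 0.24. The other core members lay between -0.85 (Psmb1) and 0.25 (Psmb2).

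In the regulatory particle, Psmd8 (Rpn12, a lid subunit) read 4.01, 3.76, 3.89 and 4.21 in sham and 3.89, 3.43, 1.62 and 2.33 in untreated rats. Again the third and the fourth untreated rats were far below sham and the first was within its range. The change of -1.15 ± 0.44 had the smallest adjusted p of the members, 0.248. Psmd4 (Rpn10, a ubiquitin receptor) read 5.87, 5.84, 5.46 and 5.99 in sham against 5.51, 5.59, 3.86 and 4.66, a change of -0.89 ± 0.39 (adjusted p = 0.266). Psmd10 (gankyrin, a chaperone of the ATPase base) changed by -0.88 ± 0.36 (adjusted p = 0.259). Psmd1 (Rpn2, a scaffold of the base) went the other way, with 2.86, 3.08, 2.98 and 2.99 in sham against 2.96, 3.57, 3.53 and 3.94, and a change of 0.52 ± 0.23 (adjusted p = 0.266). Here 3 untreated rats were above all sham rats and the first was among them. Psmc1 of the ATPase ring was 0.46 ± 0.26 higher (adjusted p = 0.306), and Psmd7, a lid subunit, 0.36 ± 0.21 (adjusted p = 0.32). The ATPase ring as a set had a median of 0.28 relative to all genes, with 5 of 6 members above the all-gene median, and the non-ATPase subunits with the base chaperones had -0.06, with 4 of 14 above it.

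The first untreated rat decided whether any member was called. Without that array, 3 members passed limma's test between untreated and sham, Psmd8 lower (-1.51, adjusted p = 0.0373), Psmd11, a lid subunit, lower, and Psmd1 higher (0.70, adjusted p = 0.0495), while 11.5% of all genes passed. These 3 are 3 of 44 members, a smaller share than that of all genes. Leaving out any other array of these groups gave 0 members.

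**Figure D2:**
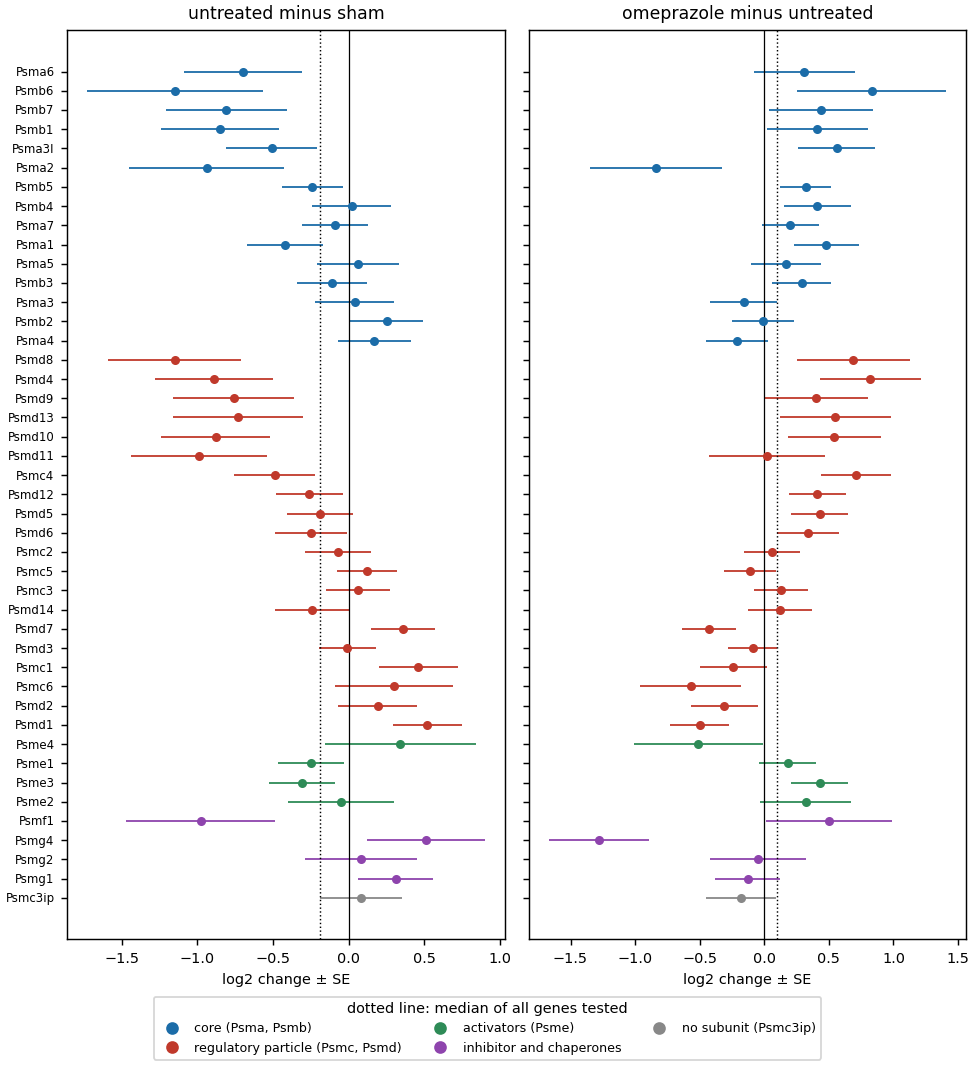
Log2 change ± SE (bars) of the 44 members, coloured by class, in untreated minus sham (left) and omeprazole minus untreated (right), 4 rats in each group, with the median of all genes as a dotted line. Psmd8 and Psmb6 sit at -1.15 on the left and Psmd1 at 0.52. Both panels share the untreated rats, with opposite sign.

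The activators replace the regulatory particle on the core and open it to peptides without ubiquitin. Psme1 and Psme2 form the interferon-inducible PA28 ring, Psme3 forms the nuclear PA28 gamma ring, and Psme4 is PA200. Psme1 changed by -0.25 ± 0.22 between untreated and sham (adjusted p = 0.487) and Psme3 by -0.31 ± 0.22 (adjusted p = 0.378). Relative to the all-gene median they were at -0.05 and -0.12. Spike-in scaling leaves such relative values unchanged by construction. Psme2 had nearly equal means, 4.66 and 4.72, but unequal spread: sham rats read 4.83, 4.94, 4.48 and 4.62 and untreated rats 4.45, 3.61, 4.54 and 6.05. The second untreated rat was thus the lowest of all 20 arrays and the fourth the highest. The direction of the Psme2 change (-0.05 ± 0.35) turned under other settings and is not read.

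Psme4 read 2.55, 2.44, 2.40 and 2.97 in sham and 2.64, 4.91, 2.27 and 1.88 in untreated rats, a change of 0.34 ± 0.50 (adjusted p = 0.678) that became -0.32 without the second rat. This gene has a second probe on the array, 6606 bases away on rn4 and well above background on all 20 arrays, whose change was -0.01. On the second untreated array the brighter probe gave its highest level of all 20 arrays and the other probe its lowest, -1.93. Across arrays the correlation with the erythroid score was 0.53 for the brighter probe and -0.74 for the other. Values of Psme4 therefore belong to the probe and not to the gene as a whole.

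**Figure D3:**
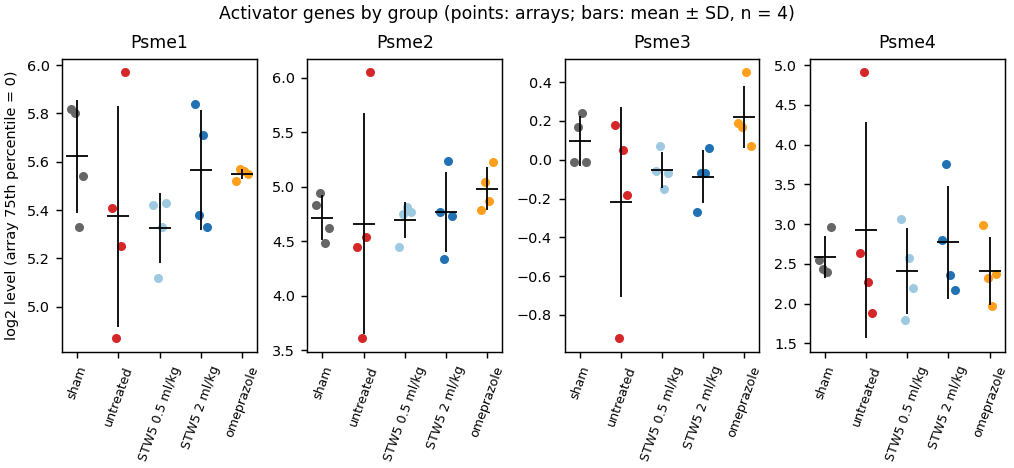
Levels of the 4 activator genes by group (points are arrays, bars the mean ± SD, n = 4). The second untreated rat is the lowest of its group for Psme1 (4.87), Psme2 (3.61) and Psme3 (-0.92) and the highest for Psme4 (4.91).

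The inhibitor Psmf1 (PI31) read 6.12, 5.86, 6.09 and 6.69 in sham and 6.09, 5.86, 4.70 and 4.20 in untreated rats, which again set the third and the fourth rats apart. The change was -0.98 ± 0.49 (adjusted p = 0.277), and its second probe gave -1.38. The chaperones of the core went from 0.08 ± 0.37 (Psmg2) to 0.51 ± 0.39 (Psmg4), with Psmg1 at 0.31 ± 0.25. Psmc3ip changed by 0.08 ± 0.27.

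The next question was whether omeprazole or STW5 moved these genes in esophagitis. No member passed between omeprazole and untreated rats (limma, 0 of 44 against 4.17% of all genes), and 4 did so unadjusted, 9.09% against 15.5%. Psmg4, a chaperone of alpha ring assembly, had the smallest adjusted p, 0.0765, with a change of -1.28 ± 0.39. It read -0.90, -0.23, -1.01 and 0.15 in untreated rats and -2.15, -2.41, -0.46 and -2.10 under omeprazole. The third omeprazole rat was inside the untreated range and the others were below it, and without that array Psmg4 passed (-1.72, adjusted p = 0.00354, with 3.44% of all genes). Without the first untreated array it passed too (-1.41, adjusted p = 0.0471, with 7.48% of all genes), and without the third untreated array it was called at -1.45 together with Psma2 (4.89% of all genes). The second probe of Psmg4, which shares 14 bases with the one used and was above background on 20 arrays, changed by -0.13, so the readings rest on 1 probe.

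Psmc4, an ATPase subunit, was the member whose omeprazole rats all lay above the untreated rats: 1.82, 1.70, 1.67 and 1.68 against 1.34, 1.52, 0.42 and 0.78. Groups did not overlap in this direction for 2.31% of all genes, and in the other direction for 4.95%, with no member among them. The change was 0.71 ± 0.27 (adjusted p = 0.202), and sham rats had read 1.42, 1.51, 1.39 and 1.71. Psmd4 was 0.82 ± 0.39 higher (adjusted p = 0.314) and Psme3 0.43 ± 0.22 higher (adjusted p = 0.345). Psmd1 was 0.50 ± 0.23 lower (adjusted p = 0.292) and Psmd7 0.43 ± 0.21 lower (adjusted p = 0.339). The core had a median of 0.20 relative to all genes and the regulatory particle 0.02. This comparison and the one of untreated with sham share the untreated rats.

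Against sham, omeprazole rats had 0 of 44 members called (against 4.73% of all genes) and 2 unadjusted, 4.55% against 14.3%. The member nearest to a call was Psma2 of the alpha ring, with -2.38, -3.13, -2.46 and -2.97 under omeprazole against -0.89, -0.37, -0.84 and -1.75 in sham. The groups did not overlap, as for 8.5% of all genes in that direction, and the change was -1.77 ± 0.51 (adjusted p = 0.0528). It passed when the fourth sham array was left out (-2.04, adjusted p = 0.046, with 3.29% of all genes), with quantile normalization (-1.67, adjusted p = 0.0498, with 5% of all genes) and when only these 8 arrays were fitted (-1.77, adjusted p = 0.00583, with 9.68%). Untreated rats read -0.77, -1.29, -3.95 and -1.59, so the third of them was lower than any omeprazole rat. The Psma2 probe crosses an exon junction and was above background on 3 of the 4 omeprazole arrays. Psmd11 was 0.96 lower on the log2 scale (-0.96 ± 0.45, limma adjusted p = 0.333). Psmg4 had -0.78 ± 0.39 (adjusted p = 0.383, and called at -1.21 without the third omeprazole array, adjusted p = 0.0475, with 4.21% of all genes). Of the higher members, the smallest p belonged to Psmb4 (0.43 ± 0.26), Psmd5 (0.24 ± 0.22) and Psmb2 (0.24 ± 0.24). Psme2 was higher by 0.27.

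With both STW5 doses pooled, no member was called against untreated rats (limma, 0% of all genes called, 0 genes) or against sham (0% as well). Unadjusted there were 4 members in each, 9.09% against 9.53% of all genes for the first and against 8.1% for the second. In both comparisons these 4 were lower. Against untreated rats the smallest p belonged to Psmd1 (-0.56 ± 0.20, adjusted p = 0.464), Psmd3, a scaffold of the lid (-0.42 ± 0.16, adjusted p = 0.471), and Psmd7 (-0.44 ± 0.18, adjusted p = 0.485), while Psmd11 (0.72 ± 0.39), Psmd4 (0.51 ± 0.34) and Psma3l were the first of those higher. Against sham, Psmd3 was lower in all 8 STW5 rats: -0.53, -0.42, -0.34 and -0.70 at 0.5 ml/kg and -0.77, -1.07, -0.53 and -0.46 at 2 ml/kg, against -0.20, -0.04, -0.16 and -0.28. The change was -0.43 ± 0.16 (adjusted p = 0.464), and 0.439% of all genes had groups that did not overlap in this direction. Psmd10 (-0.74 ± 0.31) and Psmd14, the deubiquitinase Rpn11 (-0.49 ± 0.22), were next. No member lay above sham without overlap (1.19% of all genes), and against untreated rats none did in either direction (0.0393% of all genes higher and 0.0459% lower). In the comparison with sham 36 of 44 members were lower than sham and 32 of 44 were lower relative to the all-gene median of -0.07. The share of all genes lower than sham was not counted. The member median was -0.19. With another background correction (normexp) it was -0.13 against an all-gene median of -0.11, and without a filter on dim probes -0.19 against -0.25. STW5 and sham arrays also lay on different slides. The higher members were led by Psma4, Psma3 and Psmd2, at most 0.20.

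Between the doses, as the array titles give them, no member was called (0% of all genes), and 3 were at an unadjusted p below 0.05, 6.82% against 26.6%. Psma1 read 0.96, 0.77, 1.49 and 1.13 at 2 ml/kg and 1.87, 1.98, 2.33 and 1.59 at 0.5 ml/kg, without overlap, as for 3.82% of all genes in that direction. The change was -0.85 ± 0.25 (adjusted p = 0.0847), and it passed without the third array of 2 ml/kg (-0.99, adjusted p = 0.0441, with 5.28% of all genes). Psmd7 (0.46 ± 0.21, adjusted p = 0.174) and Psmd2 lay above without overlap, as for 7.35% of all genes, and Psmd4 was 0.93 ± 0.39 higher (adjusted p = 0.148). Core and regulatory particle were both low relative to all genes, -0.36 and -0.35. The median of all members, -0.35, became -0.06 with the log2 75th percentile as a covariate, where Psmd4 turned to -0.20, and -0.85 without a filter on dim probes, where the all-gene median rose from 0.18 to 0.68. The arrays of 2 ml/kg had 75th percentiles of 71.3 to 163 against 152 to 308. The direction of each of these values turns if the doses are exchanged, and the part of the signal difference was not tested.

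Over all 5 groups, limma's F test called 0 of 44 members against 5.98% of all genes, and at an unadjusted p below 0.05 there were 6 members, 13.6% against 26.8%. The smallest F-test p values belonged to Psma1 (adjusted p = 0.067), Psma2 (0.118), Psmg4 (0.152), Psmc4 (0.167) and Psmd4 (0.174).

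The core and the regulatory particle moved together from array to array. The difference between their median levels, each gene taken from its own mean, lay between -0.22 and 0.15 on the 20 arrays, with group means of -0.03 in sham, -0.07 in untreated, 0.10 and -0.05 in STW5 (0.5 and 2 ml/kg) and 0.08 in omeprazole rats and SDs of 0.05 to 0.15 (n = 4 each). The difference between groups in this measure was not tested. Pairs of members correlated across the arrays at a median r of 0.47 within the core, 0.37 within the regulatory particle and 0.40 between them, against 0.02 between members and all other genes. These are descriptions over 20 arrays that share their scaling, and no other gene set was examined this way. The members' levels also correlated with the array's log2 75th percentile, at a median r of 0.38 against 0.11 over all genes. It was 0.43 in the core and 0.26 in the regulatory particle. The part of array signal in the correlations between members was not tested. The closest pairs were Psmb7 with Psmb1 (0.95), Psmd8 with Psmb6 (0.92) and Psmc5 with Psmc2 (0.91), and the most opposed pair was Psmg1 with Psmf1 (-0.86). Psmd8, of the regulatory particle, was thus closest to a core subunit, and of the members Psma6, Psmb6, Psmd4, Psmd9, Psmd11 and Psmf1 each had Psmd8 as their closest partner.

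The members differed among themselves in their relation with erythroid transcripts, and both the core and the regulatory particle held members with positive and with negative r. The erythroid score averages, for each array, the deviations of 12 tested markers (of 16 listed) from their own means, with the median deviation of all genes subtracted. That median was also subtracted from the members' levels before they were correlated with the score, so both share this term. The score lay between 0.32 and 0.93 in sham and at 0.35, 0.81, -2.15 and -1.36 in untreated rats. In STW5 rats it ranged from -0.94 to 0.45 (0.5 ml/kg) and from -0.77 to 0.86 (2 ml/kg), and in omeprazole rats from -0.37 to 0.90. Levels of 10 of 44 members (22.7%, against 14.3% of all genes) correlated with it at an r of at least 0.7, and those of 2 members (4.55%, against 9.53%) at -0.7 or less. The share on the high side was above that of all genes by less than a factor of 2 and no test of it was made. Of the 10, 3 belong to the core (Psma6, Psmb6 and Psmb7), 6 to the regulatory particle (Psmd4, Psmd8, Psmd9, Psmd10, Psmd11 and Psmd13) and 1 is the inhibitor Psmf1, and no ATPase subunit or activator is among them. Just under the threshold was Psmb1 (0.70 after rounding), and the next was Psmc4 (0.58).

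Psmd8 had the highest r, 0.97 (Spearman's rho 0.92, permutation p = 1e-05, the smallest that 100000 permutations can give, adjusted p = 0.00022 over 176 relations). It held at 0.97 within groups, at 0.97 on slide 1 and 0.96 on slide 2, at 0.94 without the 2 arrays farthest from the median, and at 0.93 with the array's signal held constant. Psma6 (r 0.91, rho 0.88), Psmb6 (0.90, 0.83), Psmd4 (0.89, 0.83), Psmd9 (0.89, 0.92) and Psmf1 (0.89, 0.95) followed, each with a permutation adjusted p of 0.00022 and an r of 0.82 to 0.90 without those 2 arrays. Psmd13 had an r of 0.84 and 0.74 without them. For Psmd10 (0.75), Psmd11 (0.74) and Psmb7 (0.72) the value fell to 0.64, 0.60 and 0.57 without those arrays, and for Psmb7 it was 0.86 on slide 1 and 0.19 on slide 2. The second probes of Psmd9 and Psmf1 gave 0.93 and 0.90.

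On the other side stood Psma4 of the alpha ring (r -0.77, rho -0.78, adjusted p = 0.00109), the chaperone Psmg1 (-0.76, -0.80, adjusted p = 0.00104) and Psmd1 (-0.67, -0.69, adjusted p = 0.00709). Without the 2 arrays farthest from the median they were -0.78, -0.67 and -0.45. With the signal held constant they were -0.64, -0.45 and -0.32, and the erythroid score itself correlated with the log2 75th percentile at -0.70 (-0.77 within groups). Several members had an r near 0 with the score, among them Psmb5 (0.11), Psmb4 (0.01), Psmc2 (-0.02) and Psma7 (-0.03). With the signal held constant these were 0.54, 0.48, 0.44 and 0.52. On slide 1 they were 0.11, 0.19, 0.17 and 0.23, and on slide 2 -0.14, -0.55, -0.52 and -0.72. An r near 0 thus does not show that these members are unrelated to the score.

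**Figure D4:**
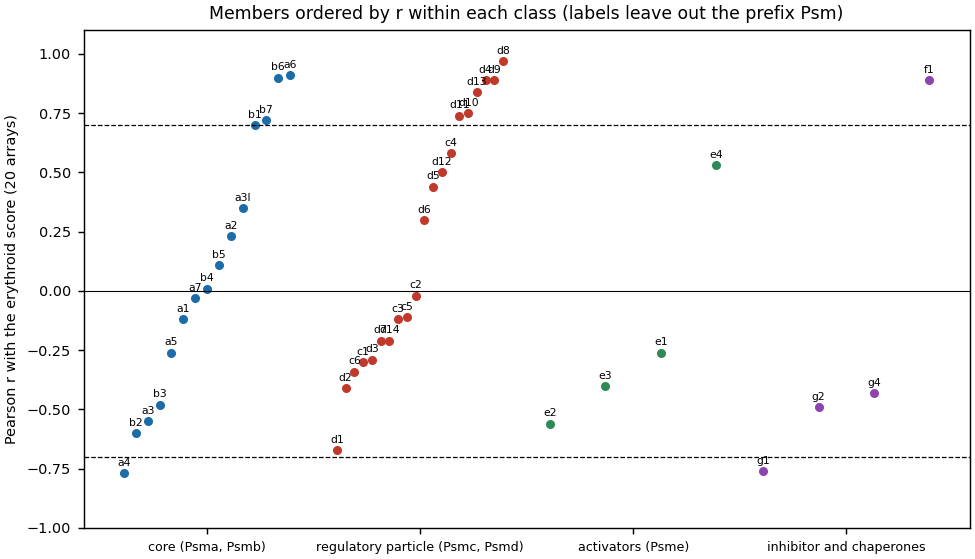
Pearson r of each member's level with the erythroid score over 20 arrays, by class, with dashed lines at 0.7 and -0.7. The core reaches from Psma4 (-0.77) to Psma6 (0.91). The regulatory particle reaches from Psmd1 (-0.67, short of the lower dashed line) to Psmd8 (0.97).

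The 10 members were chosen by their r on these same arrays, and the score itself was lower in untreated rats (-0.59 ± 1.40, SD, n = 4) than in sham (0.55 ± 0.27), so the direction of their group differences was largely fixed by the choice. As a description, their changes in untreated minus sham lay 0.51 to 0.96 below the all-gene median (median -0.69), and the 2184 genes of the whole table with such an r had a median of -0.65. In omeprazole minus untreated the medians were 0.42 for the 10 members and 0.37 for those genes, and in STW5 minus untreated they were 0.23 and 0.36. These comparisons share the untreated rats. The part of erythroid cells in these differences was not tested.

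**Figure D5:**
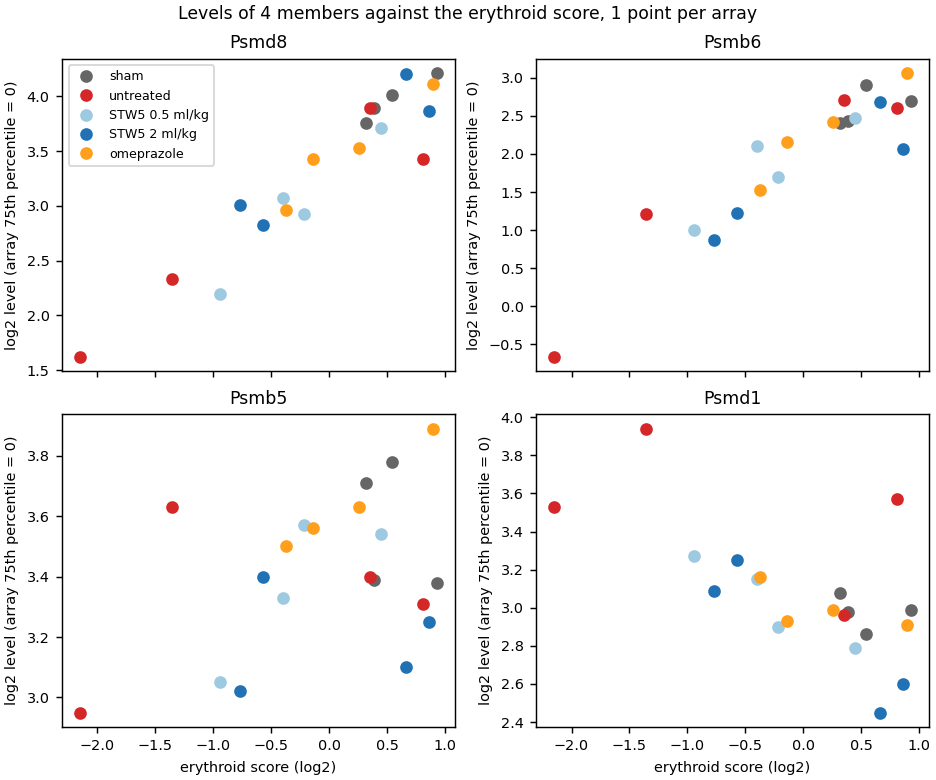
Levels of Psmd8, Psmb6, Psmb5 and Psmd1 (log2, vertical axes) against the erythroid score (horizontal axes), 1 point per array, coloured by group. The r values were computed after the array's median deviation of all genes was subtracted from the levels, which the points do not show. Psmd8 (r 0.97) and Psmb6 (0.90) climb along the score, Psmb5 (0.11) is level, and Psmd1 (-0.67) descends. The lowest points of Psmd8 and Psmb6 are the third untreated rat.

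Among the activators, Psme2 had an r of -0.56 with the erythroid score (rho -0.62, permutation adjusted p = 0.038) and the brighter Psme4 probe 0.53 (rho 0.74, permutation adjusted p = 0.0693 for r and 0.00176 for rho). They also varied with other measures. Psme2 correlated with the score of Psmb8, Psmb9 and Psmb10, the interferon-inducible catalytic subunits, at r 0.93 (rho 0.93, permutation adjusted p = 0.00022), with 0.94 within groups and 0.90 without the 2 farthest arrays. Psme1 had 0.76 (rho 0.66, adjusted p = 0.0011), which fell to 0.52 without them, and the constitutive core subunit Psmb3 had 0.76 (rho 0.93), which was 0.83 without them. These 3 are 6.82% of the members at an r of at least 0.7, against 2.6% of all genes. Psme3 correlated with the T cell score (11 of 12 markers tested) at 0.85 and the brighter Psme4 probe at -0.83, values that dropped to 0.51 and -0.58 without the 2 farthest arrays, 1 of them that of the second untreated rat. On slide 2, which does not hold that rat, they were 0.76 and -0.59. These 2 were the members past 0.7 or -0.7 with that score, where 4.75% and 1.32% of all genes lay.

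The 3 immunoproteasome subunits were not called in any of the 6 comparisons. Psmb8 read 2.90, 3.03, 2.69 and 2.81 in sham, 2.72, 0.73, 2.16 and 3.45 in untreated and 2.76, 3.57, 3.21 and 3.96 in omeprazole rats, and omeprazole minus untreated was 1.11 ± 0.42 (limma adjusted p = 0.193). Psmb9 was above all sham rats in all 4 omeprazole rats (4.07, 4.46, 4.15 and 4.79 against 3.50, 3.68, 3.14 and 3.28), a change of 0.97 ± 0.44 (adjusted p = 0.316) where 6.83% of all genes did not overlap in that direction. Against untreated rats it was 0.90 ± 0.44 (adjusted p = 0.338). Without the fourth untreated array both passed against untreated rats, Psmb8 at 1.50 (adjusted p = 0.0446) and Psmb9 at 1.43 (adjusted p = 0.0374), with 3.43% of all genes. With the erythroid score as a covariate, a setting added after the data were seen, Psmb8 passed there too (1.36, adjusted p = 0.0467, with 8.26% of all genes). Psmb10 differed by -0.10 ± 0.39.

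Of the other genes of the pathway, 9 of 11 assembly and 19S-associated genes, 9 of 10 genes for transcriptional control, 6 of 6 ubiquitin and E1 genes and 11 of 11 shuttle and unfoldase genes were tested. A single gene of these passed in any of the 6 comparisons, Adrm1, which encodes the ubiquitin receptor Rpn13 of the regulatory particle and so is a subunit without the Psm name. It was lower in omeprazole rats (-3.87, -3.73, -4.61 and -3.71) than in untreated (-2.47, -2.28, -3.32 and -3.10) and sham rats (-2.59, -2.86, -2.63 and -2.99). The changes were -1.19 ± 0.32 (limma adjusted p = 0.0357) and -1.21 ± 0.32 (adjusted p = 0.0305), and the groups did not overlap. The probe is dim: it was well above background on 3 of 4 sham, 4 of 4 untreated and 1 of 4 omeprazole arrays. With normexp background correction the changes were -0.10 (limma adjusted p = 0.821) and -0.43 (adjusted p = 0.424). Neither passed with spike-in scaling (adjusted p = 0.126 and 0.323) or without a filter on dim probes (0.0807 and 0.0701). With only the arrays compared, the change against untreated rats did not pass (adjusted p = 0.154). The F test over 5 groups gave an adjusted p of 0.0756. Leaving out 1 array ended the call against untreated rats for every array of both groups but the third and the fourth untreated ones (adjusted p up to 0.149). It ended the call against sham for every array but the first omeprazole one (adjusted p up to 0.105).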

How the data were processed

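The deposited scanner files hold spot intensities; per the file headers, Agilent Feature Extraction 10.7.3.1 subtracted background and set low values to a surrogate. A table of values the authors deposited gives, per spot, the ratio of signal to array median; 12 of its columns follow their own array and 8, those of STW5, the array of the other dose. It was used as an alternative.

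Non-outlier spots of a probe were averaged as log2 intensity, and log2 of the array's 75th percentile was subtracted. The 17236 probes marked by the scanner software as clearly above background on 4 or more arrays were kept, with the brightest probe per gene (15260 genes). Genes were named by the scanner files and, through accessions, by RefSeq. Group means of all 5 groups were fitted in limma (version 3.58.1, R 4.3.3; lmFit and eBayes, two-sided, 15 residual degrees of freedom), with Benjamini-Hochberg adjustment over all genes. Relations used 100000 permutations (Python 3.11.15, scipy 1.17.1), adjusted over 176. The measures were the erythroid, T cell and immunoproteasome scores and the log2 75th percentile. Correlations used levels minus the array's median deviation of all genes. The limma fit was tested on simulated data.

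The members and gene lists were chosen with earlier results of these data known. Named were, for each comparison, the 3 members with the smallest p in each direction, the 5 with the smallest F-test p, the catalytic subunits, activators and inhibitor, pathway genes that passed, and the immunoproteasome subunits. Other named members illustrate counts and relations and were chosen after their values were seen. The labels do not say more of the replicates than 1 rat each. Alternatives were other background corrections, scalings, filters and probe rules, fits to fewer arrays, a replicate block, covariates, exchanged doses, the value table and leaving out each array.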

Additional observations from a re-analysis of the deposited data

Results flagged for a closer look

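In 6 of 170 groups of 4 arrays, over the 34 named genes, 1 array lay apart from the other 3 by a gap that took most of the group's range (Dixon's test at the 95% level). Chance alone puts an array apart in about 1 of 20 groups, and 6 of 170 is 3.53%. Psmg4 read -0.46 on the third omeprazole array, next to -2.10 on the nearest of the others. Psmd2, a scaffold of the base, read 2.31 on the third sham array, next to 3.24. Psmd7 read 1.15 on the fourth sham array, next to 0.88, and Psma3l 0.60 on the fourth array of STW5 2 ml/kg, next to 1.25. On the first array of STW5 0.5 ml/kg, Psme2 read 4.45 and Psmb10 3.93, next to 4.75 and 4.33.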

How the results depend on the processing

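The 52 single-gene changes named kept their direction and their side of the threshold in 997 of 1084 recomputations. The counts and medians stayed close to their values in 287 of 314. Part of this was fixed in advance. The replicate block and the fit to only the arrays compared leave every log2 change as it was. Exchanging the doses leaves the other comparisons unchanged, and spike-in scaling leaves the relative medians. Only the Adrm1 changes were called at first, so keeping the side mostly meant staying uncalled. Spike-in scaling moved the median of all genes most, from -0.19 to 0.39 in untreated minus sham and from 0.18 to -1.09 between the STW5 doses. With it 35 members were called between the doses, all lower, against 50.8% of all genes, and 23 by the F test, against 31.8%. With that common shift, Psmb5, Psme1, Psme2 and Psme3 became 0.34, 0.33, 0.52 and 0.27 in untreated minus sham, Psma3l -0.01 in STW5 minus untreated, and Psmd4, Psmd7 and Psma6 -0.34, -0.80 and -0.73 between the doses. With normexp, 4 members were called between the doses (against 24.6% of all genes), Psme2 was 0.13 and Psma3 (STW5 minus sham) -0.04. With quantile normalization 1 member was called between omeprazole and sham, and Psme2 was 0.19. With only the arrays compared, 1 member was called there. Without a filter 1 member was called between the doses (against 20.5%), and member medians became 0.30 in untreated minus sham and -0.85 between the doses. With the filter on all arrays, which leaves Psmg4 its other probe, Psmg4 in omeprazole minus sham was 0.05. Exchanging the doses turned their comparison by construction: the median became 0.35, and Psmd4, Psmd7, Psma6, Psma1, Psmd14 and Psmb3 became -0.93, -0.46, -0.54, 0.85, 0.45 and 0.37. In the value table, which has the doses exchanged, these were 0.35 and -0.78, -0.31, -0.39, 1.00, 0.60 and 0.52, and Psme2 was 0.01. With the log2 75th percentile as a covariate the median between the doses was -0.06, 2 members passed the F test (against 9.63%), Psmd4, Psma6, Psmd14 and Psmb3 became -0.20, -0.65, 0.01 and 0.09, Psmb9 and Psmb10 -0.32 each in untreated minus sham, and Psmb10 0.07 in omeprazole minus untreated. With the erythroid score as a covariate, chosen after seeing the data, 1 member was called in omeprazole minus untreated (Psme4, against 8.26%), 1 in omeprazole minus sham (Psma2, against 7.24%) and 2 between the doses (Psma1 and Psmd4, against 10.1%), 2 passed the F test (against 16.2%), Psmb6, Psmb9 and Psmb10 became 0.01, -0.41 and -0.50 in untreated minus sham, and Psmb10 0.30 in omeprazole minus untreated. The cause of these shifts was not tested.

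Leaving out each array in turn gave 0 to 3 members in untreated minus sham, 0 to 2 in omeprazole minus untreated, 0 to 1 in omeprazole minus sham and between the doses, 0 to 2 by the F test and 0 in the STW5 comparisons with untreated and sham. Changes ranged from -0.52 to 0.30 for Psme2, -0.32 to 0.69 for Psme4, -0.46 to 0.61 for Psmb9 and -0.30 to 0.57 for Psmb10 in untreated minus sham, from -0.56 to 0.32 for Psmb10 in omeprazole minus untreated, and from -0.14 to 0.21 for Psmd2 in STW5 minus sham. The count of members with an r of at least 0.7 with the erythroid score was 7 to 11, and 7 to 12 under other scalings, filters and probe rules. The labels do not say whether replicate numbers pair the rats. Arrays numbered 1 had a mean correlation of deviations of 0.31, and the other numbers 0.00 to 0.05, against -0.03 between different numbers. Of the same-numbered pairs, 19 of 40 were over 0.1. Among the arrays of the other groups, 5 of 20 arrays were closest to an array of their own number. For neither count was the value expected without pairing computed. A factor shared by the arrays numbered 1 is thus not excluded. With the replicate block, 0 members were called in the 6 comparisons and by the F test. Over all genes the block raised the share called between the doses from 0% to 3.47% and by the F test from 5.98% to 8.81%. With 4 rats in a group the median SE of a member's change was 0.23 to 0.26, and differences of that size cannot be told from 0.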
